A study of Dugesia japonica with 19 samples.

Results

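The sites described here are m6A sites of the planarian Dugesia japonica that were listed in at least 1 trunk library and at least 1 tail library and in none of the 6 head libraries. They were chosen by their presence in the deposited site lists, matched on contig, position and strand. There were 655 of them on 465 transcript contigs, out of 5847 sites on 2882 contigs in all, which is 11.2% of the sites. They made up 42.4% of the 1545 sites listed in both trunk and tail, and the other 890 of those sites were listed in head as well. Absence from head was fixed by the choice and is not a result.

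N6-methyladenosine (m6A) is a methyl mark on adenosines of messenger RNA, laid down by a methyltransferase complex and read by proteins that act on the stability, splicing and translation of the transcript. Planarians regrow a whole animal from a piece, so a mark that differs between body regions can be followed while each piece rebuilds what it lacks. In m6A-REF-seq the RNA is cut by MazF, a bacterial endoribonuclease that cuts RNA before an unmethylated ACA and spares the motif when its first adenosine carries the mark.

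The study has 18 tissue libraries, 1 per piece (head, trunk or tail) and day (0, 1, 3, 5, 7 and 10), all treated with MazF. Each came from 10 to 20 planarians whose pieces were pooled before RNA extraction and selection of poly(A) RNA. No strain, age or genotype is given in the labels. A control library of in vitro transcribed (IVT) RNA, which carries no modification, shows how often a site escapes cutting without the mark. Its label gives the source as Intact, again with 10 to 20 animals, and all pieces were set against this 1 control. At each site the uncut share is the uncut reads over all reads, and the m6A level is the uncut share in the library minus that in the control. Reads at listed sites ranged from 12100 to 466710 per head library, from 112555 to 834034 per trunk library and from 12642 to 657796 per tail library. Contigs come from a transcript assembly and are not paired with gene names in the files, so neither genes nor exons are named and the tissues could not be checked against marker genes. Positions are those of the deposited tables, and contig names are given without the prefix TRINITY_.

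The lists hold only sites with a level of at least 0.1 and with at least 11 uncut reads in the library or in the control, as read from the values. Of the 655 sites, 619 (94.5%) had 11 or more uncut reads in the control, so that a head library could have listed them on 1 uncut read. Of the listings in head libraries, 1510 (13.7%) did rest on 1 read, all at sites with this control support. Under this filter, a control-supported site was missing from a head library because that library had no uncut read there, or because its uncut share lay under the control's share plus 0.1, called here the listing limit. At the remaining 36 sites a head library also needed 11 uncut reads of its own.

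The 655 sites were mostly shallow. A listing of 1 of these sites in 1 trunk or tail library, 3427 listings in all, rested on 1 read in 31.9% of cases and on fewer than 10 in 74.8%. The plainest cases of the rule, 114 sites in 1 trunk and 1 tail library, had a median of 1 read per listing. Just outside the rule, 212 sites of trunk and tail were kept out by 1 head library, with a median of 2 reads in that head library and 2 in trunk and tail. Just outside on the other side lay 311 sites of trunk alone and 945 of tail alone. At the firm end, 17 of the 655 were listed in all 12 trunk and tail libraries and 85 on at least 4 days in each of the 2 tissues. There were 120 with 10 or more reads in both a trunk and a tail library, and 13 with 100 or more.

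On the contigs, 341 carried 1 of these sites, 85 carried 2 and 39 carried 3 or more. The sites lay on the minus strand in 62.9% of cases (412 of 655), against 55.6% of the other listed sites. Relative positions were counted along the strand of the site, so those of minus-strand sites run from the far end of the contig. The median was 0.576 of the contig length for these sites, close to the 0.564 of the other sites. With the contig cut into 4 equal stretches in this direction, the first held 10.4% of these sites and 18.2% of the others, and the third held 36.6% and 29.6%. Contigs that carried them had a median length of 1489 bases, against 1738 bases for the rest. A total of 110 lay within 50 bases of another on the same strand and can share reads, so they are not independent. In the control their median uncut share was 0.647, lower than the 0.75 of the 890 sites listed in all 3 tissues, and 17.3% had a control share under 0.25 against 8.2%. None of these differences was tested.

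The number of these sites per library varied with the size of the list. Trunk libraries held 141, 202, 226, 325, 263 and 388 of them on days 0, 1, 3, 5, 7 and 10, and tail libraries held 327, 151, 227, 319, 562 and 296. As a share of the list this was 27.4% ± 2.07 in trunk and 29.8% ± 3.46 in tail (SD, n = 6 days), so the shares of the tissues overlapped. The median level per library was 0.29 ± 0.0208 in trunk and 0.368 ± 0.0188 in tail (SD, n = 6 days), with no overlap between the tissues. Other sites of the same libraries had medians of 0.255 ± 0.0056 and 0.28 ± 0.0119. These ran from 0.25 to 0.263 in trunk and from 0.267 to 0.3 in tail, so they did not overlap either. Higher medians in tail were thus not particular to the sites absent from head. A level of 0.5 or more was found at 23.8% of the listings in trunk and 34.8% in tail, against 20.1% and 24.4% for the other sites. The control's uncut share sets the ceiling of the level, and it was lower at these sites, with library means of 0.613 against 0.734 in trunk and 0.618 against 0.715 in tail. Its part in the higher levels was not tested.

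**Figure D1:**
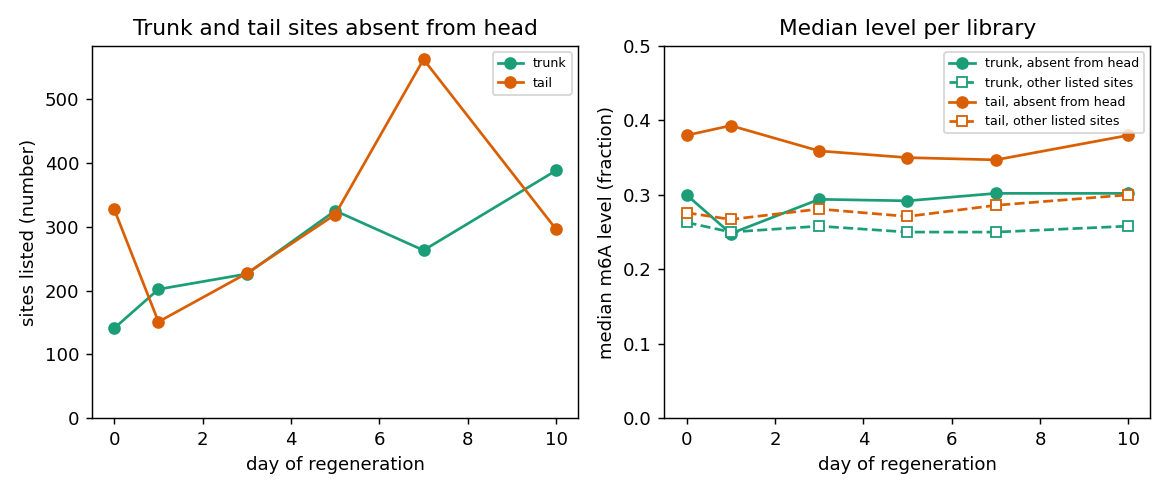
Trunk and tail sites absent from head by day of regeneration. The left panel plots the number of sites per library, and the right panel the median m6A level (a fraction) of these sites as filled circles and of the other listed sites as open squares. The tail medians of 0.347 to 0.393 all lie above the trunk medians of 0.248 to 0.302. Those of the other sites, 0.267 to 0.3 in tail and 0.25 to 0.263 in trunk, do not overlap either.

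A share of these sites was partly cut in trunk and uncut in tail. Among trunk listings with 10 or more reads, 31.0% of 442 showed no cut read at these sites, against 69.6% of 1196 at the other listed sites. On days 0, 1, 3, 5, 7 and 10 the share in trunk was 23.8%, 32.5%, 27.3%, 29.2%, 31.8% and 34.4%, and that of the other sites ran from 54.2% to 74.3%, so that the ranges did not overlap. In tail the share was 75.2% of 423 listings against 77.6% of 1077, and the ranges over days, 53.8% to 78.8% and 65.2% to 81.5%, overlapped. The median reads of these listings in trunk were 26.1 ± 3.11 against 30.4 ± 12.1 (SD, n = 6 days). Without contig DN678_c0_g2_i4, which held 84.5% of the reads at these sites in trunk and 79.6% in tail, the trunk share was 32.4% ± 2.94 against 69.4% ± 6.97. These shares were not tested, since no test over a group of sites chosen this way was made.

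The same trunk shares were taken at low and at high control shares. Where the control's uncut share was under 0.5, 30 of the 249 trunk listings showed no cut read, against 88 of 251 at sites listed in all 3 tissues. At control shares of 0.5 or more the values were 55.4% of 193 and 77.6% of 621. Sites of head and trunk that were absent from tail had no cut read in 87.4% of 167 trunk listings. Depth differed, with median reads of 17 in those listings, 28 at sites absent from head and 37 at sites of all 3 tissues. The part of depth in these shares was not tested. In tail at control shares under 0.5, the sites absent from head had no cut read in 66.5% of 194 listings and the sites of all 3 tissues in 55.4% of 186. In head, listings of the sites of all 3 tissues showed no cut read in 886 of 1772 cases. Over the 655 sites and at any depth, 457 never showed a cut read, 124 showed one in trunk only, 18 in tail only and 56 in both. This split was not made for the other sites. As library means at any depth, 71.0% of trunk and 92.2% of tail listings had no cut read here. At the other listed sites the means were 88.3% and 94.5%, so trunk was lower there too.

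Trunk and tail were compared at each site with limma on the level, with day as a block and Benjamini-Hochberg adjustment over all 270 sites with listings on 4 or more days of each tissue. Of the 655 sites, 85 on 74 contigs could be tested. Tail was higher at 3 of the 85, against 3.33% of all 270, and trunk was higher at 0, against 0.37% of all. The count, 3.53% of the 85, lay near the background in this fit, and the 270 include the 85. Several other fits gave larger shares at these sites than over all sites. They were 21.1% against 12.2% among sites with varying levels, and 31.2% against 14.7% with at least 10 reads. The quasi-binomial model gave 14.1% against 7.41%, and the fit without the day block 18.8% against 8.52%. With day 0, 3, 5 or 7 left out, the share lay below that over all sites. At an unadjusted p under 0.05 tail was higher at 23 of the 85 and trunk at 0, against 38 and 2 of all 270. The median difference, tail minus trunk, was 0.0256 over the 85 sites and 0 over all 270. It was above 0 at 54 sites, below 0 at 2 and exactly 0 at 29, nearly all of them without a cut read in either tissue. Over all 270 it was above 0 at 115, below 0 at 28 and exactly 0 at 127, so the wider list leaned to tail as well. On the same day, 857 pairs of listings could be set side by side, of which tail had the higher level in 297, trunk in 32, and 528 were equal. On each of the 6 days tail was higher in more pairs than trunk, from 29 against 2 on day 1 to 74 against 10 on day 7. Such pairs were not counted at the other sites, so these counts have no background. Pairs of the same day share their libraries and are not independent. Median reads were lower in tail than in trunk at most of the 85 sites and higher at some. A listing on 1 read has no cut read under the filter, so its level sits at the ceiling. With at least 10 reads per listing, 16 of the sites could be tested, and the difference was above 0 at 15 and below 0 at 0. Over all 68 sites of that fit, which include the 16, it was above 0 at 40 and below 0 at 18. The part of depth in these counts was not tested. The labels do not say if all tissues were handled side by side, so tissue and preparation cannot be told apart. Since a site leaves a list under a level of 0.1, the means cover the listed days only.

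**Figure D2:**
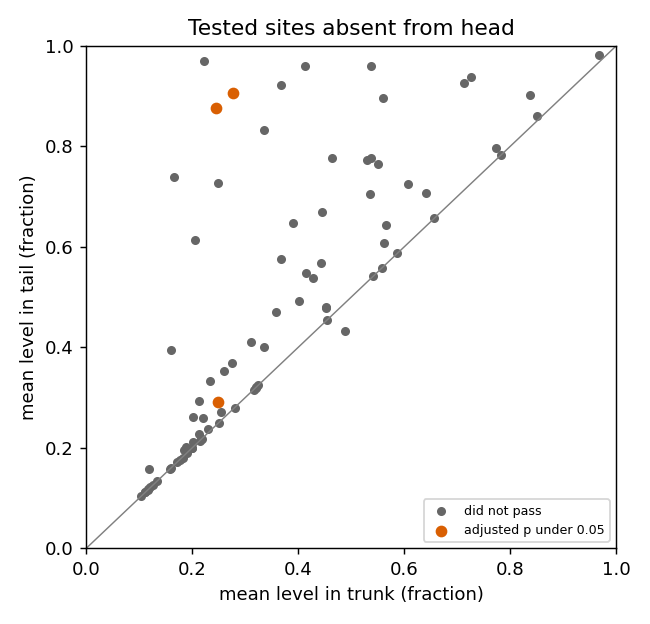
Mean m6A level (a fraction) over the listed days in trunk and in tail at the 85 tested sites absent from head. The diagonal marks equal levels, and the orange points are the 3 sites with a limma adjusted p under 0.05. Many points lie above the diagonal and 2 lie below it.

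Position 225 on the minus strand of DN1930_c0_g2_i6 was among the 3 sites called. In trunk 4 of 14, 12 of 35, 14 of 48, 24 of 71, 8 of 28 and 20 of 37 reads were uncut on days 0, 1, 3, 5, 7 and 10. In tail 18 of 18, 16 of 16, 14 of 14, 34 of 34 and 17 of 19 reads were uncut on days 0, 3, 5, 7 and 10. The tissues did not overlap on any day, and the control had 79 uncut of 1105 reads, so most unmodified RNA is cut at this site. The level was 0.276 ± 0.0981 (SD, n = 6) in trunk and 0.907 ± 0.0471 (SD, n = 5) in tail, a difference of 0.631 with a standard error of 0.0679 (limma adjusted p = 0.0257). Its listing limit in head was an uncut share of 0.171, and the nearest site listed in head, 22 bases away, had up to 4 reads there. In the quasi-binomial model on the read counts its adjusted p was 0.057, which ended the call. The limma call was also lost in the fits over fewer sites without day 0, 3, 5 or 7, with adjusted p from 0.0571 to 0.0848.

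Position 353 on the minus strand of DN89237_c0_g3_i1 had the smallest adjusted p. In trunk 1 of 3, 7 of 20, 15 of 35 and 17 of 47 reads were uncut on days 0, 5, 7 and 10. In tail every read was uncut, but these were 1, 4, 2, 33 and 1 reads on days 0, 3, 5, 7 and 10, so 1 library carried nearly all of them. The level was 0.244 ± 0.0418 (SD, n = 4) in trunk and 0.876 on each tail day, a difference of 0.632 with a standard error of 0.0201 (limma adjusted p = 0.00359). The quasi-binomial model gave an adjusted p of 0.057 here too. The contig was not listed in head at any site.

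The remaining call was small and deep. At position 232 on the minus strand of DN155747_c0_g1_i1 the uncut share in trunk was 0.921, 0.939, 0.937, 0.949, 0.937 and 0.972 on the 6 days, on 991 to 9264 reads. In tail it was between 0.982 and 0.99 on 405 to 16250 reads. All tail values lay above all trunk values, with levels of 0.248 ± 0.0169 and 0.291 ± 0.00256 (SD, n = 6), a difference of 0.0431 with a standard error of 0.00695 (limma adjusted p = 0.0383). The control was itself mostly uncut here, at 83149 of 119748 reads, so the listing limit in head was 0.794. The call was lost when day 0, 1, 3, 5 or 7 was left out, with adjusted p from 0.0571 to 0.112, in fits over fewer sites.

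The largest difference among the 85 sites missed the threshold. At position 521 on the minus strand of DN11867_c10_g1_i1, 9 of 47, 11 of 64, 7 of 54 and 17 of 33 reads were uncut in trunk on days 1, 5, 7 and 10. All 82, 22, 25, 140, 721 and 250 reads in tail were uncut on the 6 days. The levels of 0.223 ± 0.177 (SD, n = 4) and 0.971 differed by 0.748 with a standard error of 0.0854 (limma adjusted p = 0.0528), and the quasi-binomial model gave an adjusted p of 0.00354. The control had 788 uncut of 27271 reads, a share of 0.0289, so a head library with any uncut share above 0.129 could have listed the site. A head-listed site 73 bases away, at position 594, had between 15 and 350 reads on the 6 head days.

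Position 1275 on the minus strand of DN1290_c0_g1_i7 was deep in both tissues. In trunk the uncut share was 0.809, 0.839, 0.797, 0.78, 0.576 and 0.875 on the 6 days, on 1327 to 12006 reads. In tail it was between 0.983 and 0.998 on 66 to 2953 reads, above trunk on every day. The levels were 0.726 ± 0.105 and 0.938 ± 0.00601 (SD, n = 6), with a limma adjusted p of 0.0702 and a quasi-binomial one of 0.000957. The control share was 0.0529, so the listing limit in head was 0.153. Position 1465 of the same strand, 190 bases away, was listed in head on 1 day, with 5 uncut of 37 reads, while its mean uncut share was 0.974 in trunk and 0.996 in tail.

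Some sites were almost fully uncut in both tissues. At position 182 of DN119413_c0_g1_i1, a contig of 255 bases, 31 of 31, 78 of 78, 49 of 50, 130 of 132, 78 of 80 and 147 of 150 trunk reads were uncut on the 6 days. All tail reads were uncut, on 3 to 31 reads a day, and the control had 12 uncut of 630, giving levels of 0.968 ± 0.0108 (SD, n = 6) and 0.981. The contig was not listed in head. Position 1363 of DN4011_c0_g1_i5 had levels of 0.85 ± 0.0151 (SD, n = 6) in trunk and 0.861 in tail, with 25 to 236 trunk reads and 2 to 114 tail reads a day. Its listing limit in head was 0.239, and a site 18 bases away, at position 1345, was listed on all 6 head days with 6 to 69 reads, none of them cut.

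The contigs of these sites were often listed in head at other positions. For 447 of the 655 sites, 68.2% with a Wilson 95% interval of 64.6% to 71.7%, the contig had another site listed in head, on 300 contigs. Among all 1545 sites listed in trunk and tail, which include the 655, the share was 71.6%, so the value lay near the background. At least 100 reads in 1 head library were found elsewhere on the contig for 95 of the sites (14.5%), against 16.2% of all 1545. Relaxed to 10 reads, the count was 296 (45.2%), against 56.3% of the 890 sites listed in all 3 tissues. The nearest head-listed site was within 300 bases for 373 sites (56.9%) and within 100 bases for 180 (27.5%). Among those 890 sites the shares were 59.9% and 35.3%. These differences were not tested. The intervals cover counting error only, and sites of 1 contig share its reads.

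The sites that skip another tissue were described in the same way. Of the 421 sites of head and trunk that were absent from tail, 37.1% (32.6% to 41.8%) had a contig listed in tail at another site, and 0 of them had 100 reads there. Of the 378 sites of head and tail absent from trunk, 46.8% (41.9% to 51.9%) had a contig listed in trunk, and 3.44% had 100 reads. The head lists were larger, with 3936 distinct sites against 2277 in trunk and 2868 in tail, and the part of list size in these shares was not tested. Of the 890 sites listed in all 3 tissues, 74.0% (71.1% to 76.8%) lay on a contig listed in head at a further site.

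**Figure D3:**
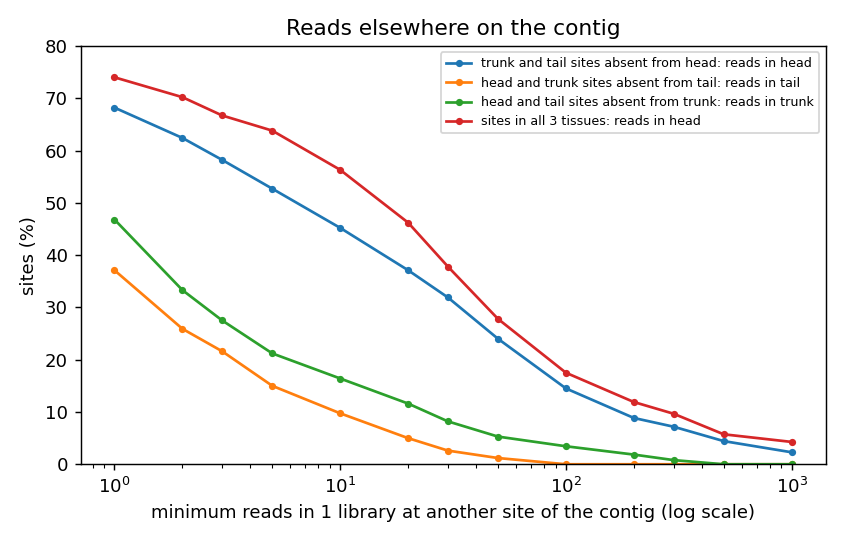
Share of sites (%) whose contig has a further site with at least the given number of reads in 1 library of the tissue named, with the number of reads on a log axis. Sites absent from head fall from 68.2% at 1 read to 14.5% at 100 reads, below the sites of all 3 tissues and above the sites absent from tail or trunk.

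Reads of the 3 tissues were compared at sites listed in all of them, on contigs that also carry a site absent from head. There were 388 such sites on 207 of the contigs, and the median of the highest reads in any library was 13 for head, 5 for trunk and 7.5 for tail. Head was higher than trunk at 58.0% of them and higher than tail at 55.7%. At the 502 sites of all 3 tissues on other contigs the medians were 17, 3 and 2, and head was higher at 73.1% and 74.7%. The first contigs were picked for a site listed in trunk and tail and not in head. That choice can itself lean the contrast toward trunk and tail reads, so no conclusion on head is drawn from it. Reads were not scaled to depth, which is unknown, and in pooled pieces fewer cells of a type and less RNA per cell cannot be told apart. Contigs of the sites took up 18.4% to 27.6% of the listed sites in head libraries and 70.8% to 84.2% of the reads at listed sites. DN678_c0_g2_i4 and DN155747_c0_g1_i1 together held 83.3% of those head reads, 943319 of 1131905. Without these 2 contigs, left out after seeing the data, the contigs took up 31.8% to 48.6% of the reads in head libraries.

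The sites that head could most easily have listed are those with control support on a contig well read in head. There were 425 sites with 11 or more uncut control reads and a contig listed in head, 278 of which had 10 or more reads in a head library elsewhere on the contig. For 89 sites on 50 contigs this was 100 or more reads, with a median of 278. Their median listing limit was an uncut share of 0.692, and their median mean uncut share was 1.0 in both trunk and tail. Close by, within 100 bases, 75 of the control-supported sites had a head-listed site of 10 or more reads, and 21 on 17 contigs had 1 of 100 or more. For these 21 the nearest head-listed site had a median of 297 reads and at most 934 reads, and lay a median of 63 bases away. Reads at a neighbour are not reads at the site itself, for which the tables hold no head counts.

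**Figure D4:**
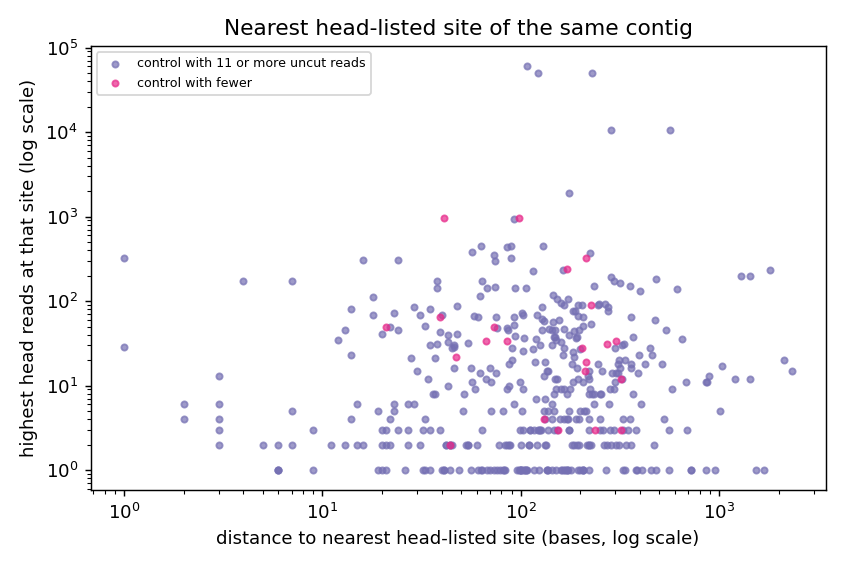
Distance in bases to the nearest head-listed site of the same contig and the highest reads of that site in a head library, both on log axes, for the 447 sites whose contig is listed in head. Points are coloured by whether the control had 11 or more uncut reads. Reads at the neighbour run from 1 to 60397.

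The other 208 sites lay on 165 contigs with no head-listed site. Their contigs were shorter, with a median of 1129 bases against 1698.5, and each site had a median of 11 trunk and tail reads in sum against 15. Their median level was 0.3 in trunk and 0.328 in tail, against 0.287 and 0.347 on contigs listed in head.

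Contig DN678_c0_g2_i4, 5705 bases long, carried 5 of the sites, all on the minus strand, and had 18 of its 23 listed sites listed in head with up to 107201 reads in 1 library. At position 1311 the uncut share in trunk was 0.974, 0.986, 0.973, 0.954, 0.941 and 0.96 on the 6 days, on 4549 to 60571 reads. In tail it was between 0.981 and 0.995 on 266 to 48283 reads, and the control had 36 uncut of 188 reads. The levels were 0.773 ± 0.0161 in trunk and 0.797 ± 0.00515 in tail (SD, n = 6), with a limma adjusted p of 0.228 and a quasi-binomial one of 0.00286. The nearest head-listed site, 285 bases away, had up to 10480 head reads, while position 1311 itself had a listing limit of 0.291 and no head listing. At position 570 the uncut share ran from 0.891 to 0.963 in trunk and from 0.955 to 0.998 in tail, on 5069 to 45732 and 30 to 4418 reads. Its limit was 0.372, and position 448, 122 bases away, had 12649 to 49817 head reads on the 5 head days on which it was listed. Position 4212 had levels of 0.837 ± 0.11 in trunk (SD, n = 6) and 0.902 ± 0.000212 in tail (SD, n = 5). Positions 220 and 1032 had control shares of 0.842 and 0.818, so their levels stayed under 0.2 although most reads were uncut.

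**Figure D5:**
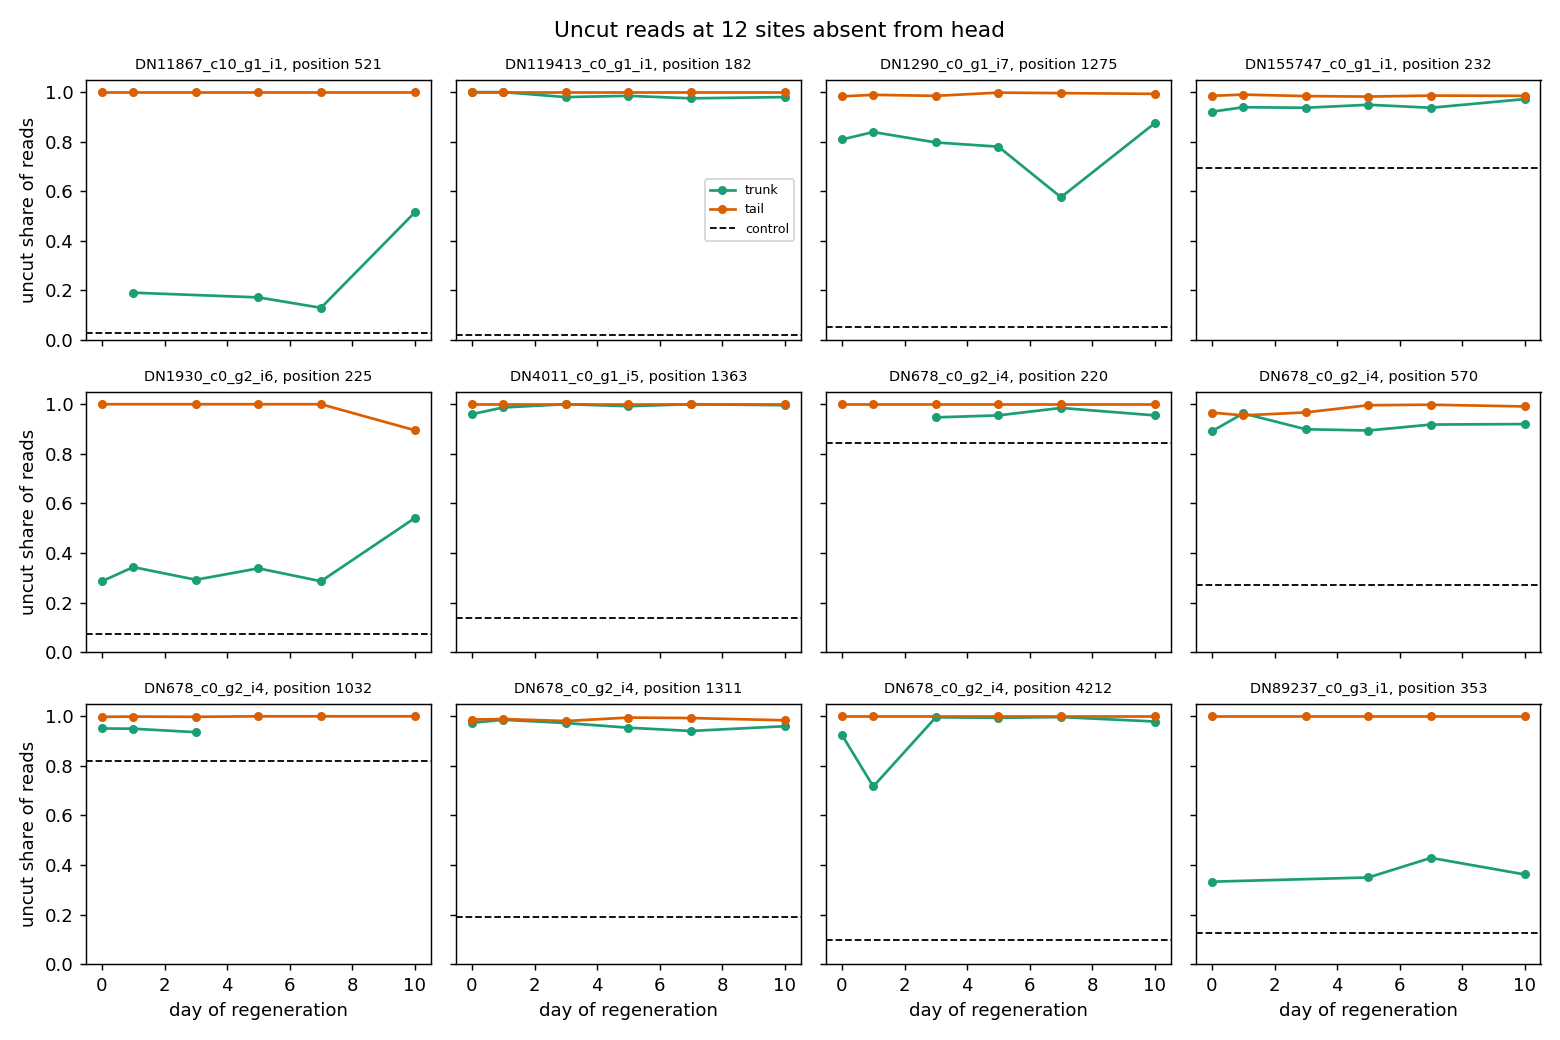
Uncut share of reads by day of regeneration in trunk and tail at the 12 sites absent from head that 2 or more parts of the naming rule picked, with the control share as a dashed line. Both tissues are at or above 0.891 at positions 1311 and 570 of DN678_c0_g2_i4, while at DN11867_c10_g1_i1, DN1930_c0_g2_i6 and DN89237_c0_g3_i1 trunk lies between 0.13 and 0.541 and tail at or above 0.895.

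Contig DN2158_c0_g1_i12 carried the most of these sites, 9 between positions 422 and 1044 on the plus strand of 1840 bases, and 8 other sites listed in head with up to 734 reads. Its sites at 758 and 784 had no cut read in either tissue, with tail listings on all 6 days and trunk listings on 2 and 3 days. The head-listed site at 695, 63 and 89 bases from them, had 10 to 450 head reads, none of them cut. The limits at 758 and 784 were 0.502 and 0.612. Contig DN111_c0_g1_i1 carried 7 sites and was listed in head at 1 position on 1 read. Contig DN14648_c4_g1_i1 carried 6, with up to 23 head reads elsewhere, and DN60241_c0_g1_i1 carried 5, with up to 49.

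Head levels could be tested at the other sites of these contigs, which the choice did not use. Against trunk, 278 sites were tested with limma and 16 were lower in head (5.76%). On contigs with a site absent from head 8 of 136 tested sites were lower in head and 0 were higher, 5.88% of them, which is near the background. Against tail, 19 of 176 were lower in head (10.8%). On these contigs 11 of 110 were lower and 0 higher, 10.0% lower, which is also near the background. The 2 comparisons share the head libraries.

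The called sites included deep ones on the same contigs as sites absent from head. At position 448 of DN678_c0_g2_i4 the head level was 0.305 ± 0.0977 (SD, n = 5), against 0.825 ± 0.0165 in trunk and 0.832 ± 0.012 in tail (SD, n = 6), with limma adjusted p of 0.0107 and 0.00292. At position 3263 of that contig head had 0.162 ± 0.0246 against 0.797 ± 0.0119 in trunk and 0.776 ± 0.0233 in tail, with adjusted p of 0.000111 and 0.000163. In both, head lay below trunk and tail with no overlap. Position 1951 of DN1290_c0_g1_i7 had 0.204 ± 0.0746 in head, 0.668 ± 0.151 in trunk and 0.85 ± 0.0217 in tail (SD, n = 6), with limma adjusted p of 0.0118 and 0.000163. Position 745 of DN11867_c10_g1_i1 had 0.169 ± 0.0515, 0.612 ± 0.157 and 0.569 ± 0.128 (SD, n = 6), with limma adjusted p of 0.0157 and 0.00874.

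Position 339 of DN155747_c0_g1_i1, 107 bases from the site absent from head, had another pattern. The mean uncut share in head, 0.461, was close to the 0.426 of trunk, and tail had 0.997, on up to 60397, 890 and 8432 reads. Head was lower than tail by 0.535 in level with a standard error of 0.033 (limma adjusted p = 0.000604), and head against trunk was not among the calls.

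Day 0 was set against later days with limma, tissue as a factor, at 141 sites listed on day 0 in both tissues and in at least 4 later libraries of each. None was called, 0% of them, and 0 of the 36 tested sites absent from head were called. At an unadjusted p under 0.05, 1 of the 141 was higher and 8 were lower on day 0, and of the 36, 0 and 2. The quasi-binomial model called 0 as well. With 1 day 0 library in each tissue, the spread on that day could not be measured.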

How the data were processed

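m6A-REF-seq was measured in 18 tissue libraries and 1 control, and each deposited table holds 1 tissue library beside the control. Per the file headers, the authors deposited the count of uncut reads and of all reads for each site, and the m6A level as a fraction, which equalled the library's uncut share minus the control's. The deposited other value is the contig length in bases. The control columns carry the letters fto beside IVT and were taken as the IVT library. The submitters' processing notes list the tools FastQC, fastp 0.20.0 and HISAT2 2.4.2. Counting program, assembly and filter are not given in the sources used here, and what the filter keeps was read from the values. Only listed sites carry counts, so total depth is unknown, and a missing site has no value rather than 0.

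Groups are the labelled tissues. Each tissue has 1 library a day, so days stood in for replicates. In the tissue comparisons with day as a block, p-values measure how far the difference between tissues varied over days. In the day 0 comparison and without the block, p-values measure the spread between pooled libraries, time included. Levels were fitted with limma 3.58.1 in R 4.3.3 (lmFit, eBayes) on the whole table, with day as a block and a threshold of 0.05 after Benjamini-Hochberg adjustment; a difference of 0 was never called. Shares have Wilson intervals at 95% (statsmodels 0.14.6). Tested on data simulated for tail minus trunk at 270 sites, the fit called 0 of 230 unshifted sites, 20% of 20 shifts of 0.2 and 40% of 20 shifts of 0.5. The simulated reads were drawn at the real depths from 1 pooled uncut share per site, with no further spread between libraries. Levels under 0.1 were not removed from them, so these rates can differ in the real data. Alternatives were fewer days, 10 reads per listing, a logit scale with a pseudocount of 0.5, a quasi-binomial model on counts, no day block, and each day left out; sites with varying levels only, the tissue interaction, the split by control share and the removal of contig DN678_c0_g2_i4 were added after seeing the data.

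Sites were named by a rule: the 10 listed in most trunk and tail libraries, those of the 5 contigs with the most such sites, the 5 with the largest tail minus trunk difference of 1 sign on every shared day (none qualified in the other direction), the 10 whose contig had the most reads in 1 head library, all that passed a test, and the 5 with the highest mean level on at least 4 days in each tissue at a median of 10 reads or more. The sites and the rule were chosen with earlier results of these data known. No contig sequence was used here.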

Additional observations from a re-analysis of the deposited data

Results flagged for a closer look

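Among 43 groups of 4 to 6 values tested with Dixon's ratio, 17 had a value set apart from the rest of its group, where chance alone gives about 1 in 20. That rate does not apply to 7 of the 17, where the other days were exactly equal and any day with a different level, however close, stands apart by construction. Over the sites absent from head, the median level of the trunk library of day 1 was 0.248, below the other trunk days, and the median reads per site in the tail library of day 7 were 6, above the other tail days. In trunk, single levels apart from the other days were 0.486 at position 521 of DN11867_c10_g1_i1 on day 10 (33 reads), 0.523 at position 1275 of DN1290_c0_g1_i7 on day 7 (6824 reads) and 0.247 at position 744 of DN14648_c4_g1_i1 on day 3 (10 reads). Further ones were 0.163 at position 809 of the last contig on day 10 (25 reads), 0.469 at position 225 of DN1930_c0_g2_i6 on day 10 (37 reads) and 0.821 at position 1363 of DN4011_c0_g1_i5 on day 0 (25 reads). The same held for 0.139 at position 461 of DN60241_c0_g1_i1 on day 5 (35 reads), 0.619 at position 4212 of DN678_c0_g2_i4 on day 1 (99 reads) and 0.336 at position 1026 of DN9226_c1_g1_i3 on day 1 (26 reads). In tail they were 0.168 at position 3525 of DN111_c0_g1_i1 on day 7 (70 reads), 0.186 at position 2063 of DN1290_c0_g1_i7 on day 10 (72 reads), 0.823 at position 225 of DN1930_c0_g2_i6 on day 10 (19 reads) and 0.271 at position 1044 of DN2158_c0_g1_i12 on day 7 (48 reads). Tail also gave 0.462 at position 1074 of DN3099_c0_g1_i3 on day 7 (339 reads). At position 4212 of DN678_c0_g2_i4 the tail level on day 7 (10568 reads) was 0.902, the same as the tail mean to this precision, and stood apart only because 5 reads were cut on that day and 0 on the others.

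The difference between day 0 and later days itself differed between tail and trunk at 3 of the 36 tested sites, by limma's interaction term added after seeing the data, against 9 of all 141. The difference in tail minus that in trunk was -0.788 at position 310 of DN14897_c0_g1_i1 (adjusted p = 0.0208), 0.0349 at position 1363 of DN4011_c0_g1_i5 (adjusted p = 0.00644) and 0.104 at position 1619 of DN9136_c0_g4_i5 (adjusted p = 0.0383). Each rests on 1 day 0 library in each tissue and on few reads. At position 1363 no tail read was cut on any day, and the trunk level of day 0 rested on 25 reads. Median tail reads per listing were 2 at position 310 and 4 at position 1619.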

How the results depend on the processing

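Counts of called sites depended on the fit. Sites absent from head that were higher in tail (3 with the day block) numbered 12 with sites on at least 3 days, 5 with at least 10 reads, 24 on the logit scale, 12 in the quasi-binomial model, 16 without the day block, 12 among sites with varying levels, and 0 to 4 with 1 day left out (0 without day 0 or 5, 1 without day 3 or 7). On the logit scale 3 of the 85 were higher in trunk, against 34 of all 270; that scale rises with reads where no read is cut, by construction. Over all sites the count higher in tail (9) was 18, 10, 35, 20, 23 and 18 under the same settings, and 4 to 10. Sites of these contigs lower in head than in trunk (8) numbered 5, 15, 32, 17, 19 and 16, and 3 to 12; over all sites (16) they numbered 11, 25, 50, 24, 40 and 30, and 7 to 26. Against tail (11) they numbered 6, 12, 17, 15, 18 and 18, and 7 to 20; over all sites (19) the count was 13, 14, 23, 19, 32 and 31, and 12 to 30. On these contigs 1 site was higher in head than in trunk in the quasi-binomial model, without the day block and without day 10, and 25 on the logit scale; against tail 1 was higher in the quasi-binomial model and 10 on the logit scale. Where a count rose or fell, the cause was not tested, except that leaving out a day leaves fewer sites to test. Asking for 2 trunk and 2 tail libraries left 269 of the 655 sites, and 10 reads in each tissue left 120. The share with a contig listed in head was 72.9% with 2 libraries in each, 61.2% for the same strand, 45.2% at 10 reads, 14.5% at 100 reads, 27.5% within 100 bases and 56.9% within 300 bases. Tail minus trunk changed sign on the logit scale at DN111_c0_g1_i1 position 3525 (1.55), DN119413_c0_g1_i1 position 182 (-0.924), DN3099_c0_g1_i3 position 1074 (-0.664), DN4011_c0_g1_i5 position 1363 (-0.735) and DN60241_c0_g1_i1 position 461 (-1.04). At DN1568_c0_g1_i6 position 2554 it was -0.0343 in the quasi-binomial model, -0.00939 without day 0, and from -0.0271 (without day 1) to 0.0302 over the days left out. Depth limits most of these sites: 74.8% of listings rest on fewer than 10 reads.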
